A study of Rattus norvegicus and Mus musculus with 34 samples.

Results

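The enamel and dentin matrix genes Amelx, Ambn, Enam, Mmp20, Klk4, Amtn, Odam and Dspp were followed in each rat of a study of sensory nerves in jaw bone repair. The 8 genes were taken by their symbols from a list of tooth matrix genes, and all 8 are among the 20022 genes listed for the 23 rats. The question was which of the healing tissue samples hold transcripts of tooth-forming cells. Male wild-type Sprague-Dawley rats, several weeks old, received a standardized bone defect in the mandible, made from the cheek side next to the molars. In the sensory nerve+ group the inferior alveolar nerve, which carries sensation from the lower jaw, was left intact (hereafter intact). In the sensory nerve- group a segment of this nerve was removed at the time of the defect (hereafter transected), so that both groups carried the defect. Healing tissue of the defect was collected as mixed cells on day 3, day 7 and day 14, with 3 intact rats on day 3 and 4 rats in each of the other 5 groups. Each library came from 1 rat, and rats are named by the replicate number in their labels, whose meaning is not given. All rats were given penicillin in the first days, and infected rats were left out by the study.

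Enamel is built by ameloblasts, epithelial cells of the enamel organ that first secrete a protein matrix and later remove it while the mineral hardens. Amelogenin (Amelx), ameloblastin (Ambn) and enamelin (Enam) form the secreted matrix, and enamelysin (Mmp20) is the protease that cleaves it during secretion. Kallikrein 4 (Klk4) degrades the matrix at the maturation stage, while amelotin (Amtn) and the odontogenic ameloblast-associated protein (Odam) lie at the surface of maturation-stage ameloblasts and in the junctional epithelium that seals the gum to the tooth. Dentin sialophosphoprotein (Dspp) is the main non-collagen protein of dentin and comes from odontoblasts, which are mesenchymal cells. In rodents the incisor grows throughout life inside the mandible, below the molars.

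Ambn, Enam and Amtn are neighbors on chromosome 14 in the RefSeq GRCr8 assembly, with Odam and Dspp elsewhere on the same chromosome and Amelx on chromosome X. The start regions of 4 of these genes are shown because Amelx, Ambn and Enam are the genes of the secreted enamel matrix and Dspp is the dentin gene, whose levels are compared rat by rat. Each window runs from 250 bases before to 50 bases after the gene start, read 5′ to 3′ on the strand of the gene (RefSeq, GRCr8). Capitals mark the letters CCAAT or its reverse complement ATTGG, and TATAAA or its reverse complement TTTATA.
Amelx, chrX:28648553-28648852, plus strand: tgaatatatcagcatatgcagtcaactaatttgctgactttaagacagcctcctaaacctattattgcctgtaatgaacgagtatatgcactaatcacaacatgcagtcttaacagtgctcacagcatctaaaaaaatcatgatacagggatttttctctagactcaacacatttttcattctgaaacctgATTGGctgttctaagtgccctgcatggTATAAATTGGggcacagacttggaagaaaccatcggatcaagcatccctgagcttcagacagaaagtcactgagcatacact
Ambn, chr14:19898373-19898672, minus strand: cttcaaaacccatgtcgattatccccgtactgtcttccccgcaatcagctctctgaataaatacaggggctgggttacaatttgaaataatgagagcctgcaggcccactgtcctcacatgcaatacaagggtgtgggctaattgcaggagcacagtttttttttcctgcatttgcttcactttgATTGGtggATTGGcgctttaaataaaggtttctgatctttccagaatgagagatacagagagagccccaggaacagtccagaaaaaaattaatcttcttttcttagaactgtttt
Enam, chr14:19865427-19865726, minus strand: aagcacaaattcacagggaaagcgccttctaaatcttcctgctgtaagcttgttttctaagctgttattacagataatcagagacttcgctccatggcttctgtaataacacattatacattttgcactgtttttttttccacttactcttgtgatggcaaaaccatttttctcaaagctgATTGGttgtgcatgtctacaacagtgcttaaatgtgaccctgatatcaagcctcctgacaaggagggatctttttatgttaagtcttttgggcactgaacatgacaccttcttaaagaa
Dspp, chr14:5876290-5876589, minus strand: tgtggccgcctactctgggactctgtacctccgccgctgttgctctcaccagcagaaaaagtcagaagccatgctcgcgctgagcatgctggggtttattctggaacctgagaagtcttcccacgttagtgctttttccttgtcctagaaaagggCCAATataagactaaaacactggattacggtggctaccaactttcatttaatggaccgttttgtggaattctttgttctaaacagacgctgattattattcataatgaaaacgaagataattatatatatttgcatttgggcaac
A window was found for 7 of the 8 genes, all except Klk4. CCAAT, on either strand, was present in 7 of these 7 windows and in 37.5% of all 33469 windows of this length, and TATAAA was present in 2 of the 7, Mmp20 and Amelx, against 14.2% of all windows. In Amelx the TATAAA, 32 bases before the start, and the second ATTGG, 27 bases before it, overlap by 1 base. These motifs were chosen after the windows had been read, and a match is a description of the letters only.

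The libraries held between 14854389 and 18742274 expected counts, and 3 counts, taken as the limit that a count of 0 allows, stood for 0.128 to 0.329 CPM (counts scaled to a common library total, after TMM scaling). Limits and intervals cover counting error only. All levels are on this scale, which adjusts library totals for composition, and are not corrected for gene length, so that levels are compared between rats and not between genes. The bone markers Col1a1 and Runx2, a collagen chain and an osteoblast transcription factor, were counted in every rat, between 5238.5 and 36629.8 CPM for Col1a1 and between 24.4 and 223.5 CPM for Runx2. The summed level of 3 hemoglobin genes ranged from 2047 CPM in a transected day 14 rat to 910494.5 scaled CPM in another, transected day 14 rat 3, whose scaling factor of 0.4997 was the lowest of the series. The 4 transected day 7 rats are in a separate table from the other 19, so in every comparison with these rats, between days as well as between nerve states, a difference between tables cannot be told apart from the effect compared.

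Amelx, the most abundant matrix protein of forming enamel, spanned the widest range of the 8 genes, and rats of the same group differed widely. In the intact day 3 rats Amelx stood at 2.23, 2517 and 11636 CPM in rats 1, 2 and 3. In the transected day 3 rats it stood at 0.642, 119, 5872 and 1.67 CPM. Each day 3 group thus held at least 1 rat at or below 2.23 CPM and 1 rat far above it, and the groups overlapped. On day 7 the intact rats held 0.638, 22.9, 253 and 1.69 CPM and the transected rats held 1.29, 1.3, 26.5 and 1.67 CPM. On day 14 Amelx reached 0.897 CPM in intact rat 2 and 1.22 CPM in transected rat 1, and the other 6 rats held 0 or 1 count. In counts, Amelx reached 225816 in intact day 3 rat 3, and 10 rats held between 11 and 34 counts, at most 0.0151% of the highest count.

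**Figure D1:**
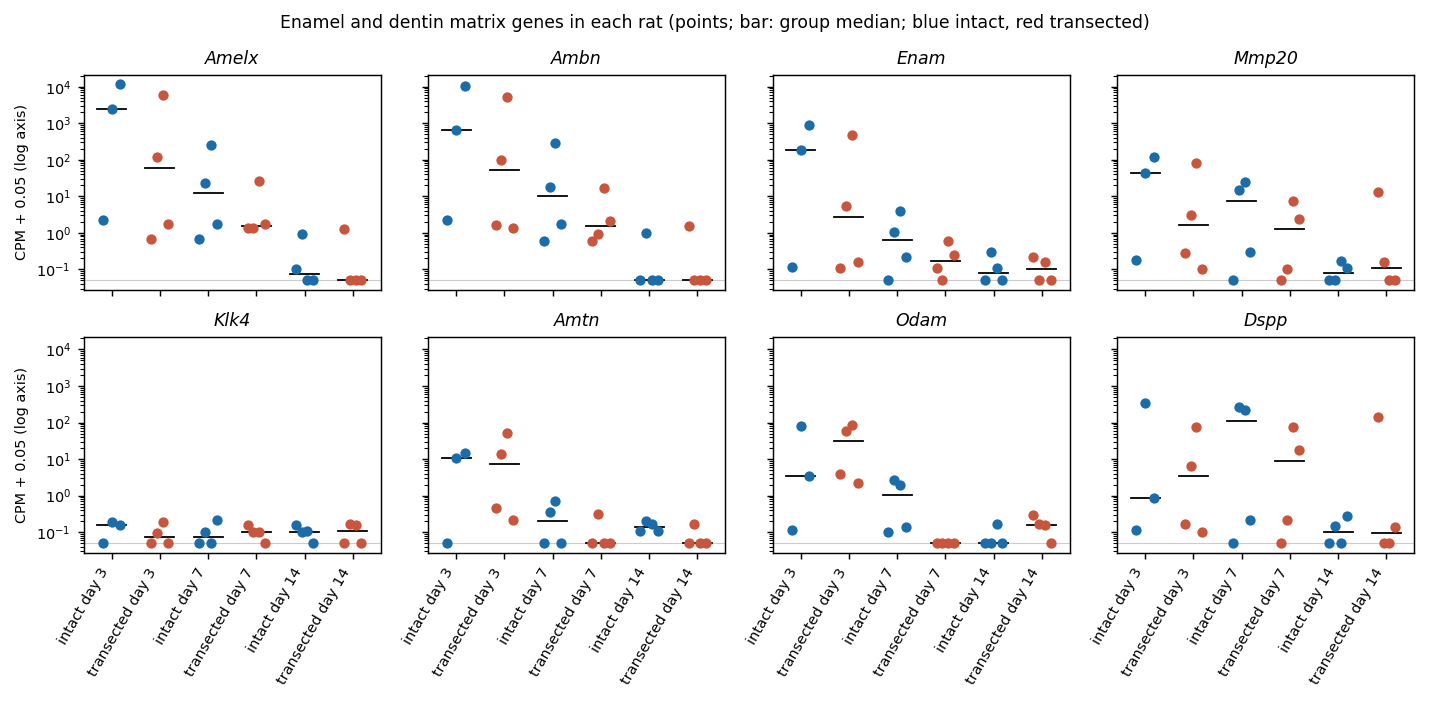
Level of each gene in each of the 23 rats, as CPM plus 0.05 on a log axis, by nerve state and day, with 1 point per rat and a bar at the group median. Within the day 3 groups Amelx runs from 0.642 to 11636 CPM, Klk4 stays at or below 0.169 CPM in every rat, and Dspp is high in 1 transected rat on day 14.

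Ambn, the second main matrix protein, followed Amelx rat by rat. It stood at 2.23, 662.5 and 10538 CPM in the intact day 3 rats and at 1.58, 101, 5155 and 1.35 CPM in the transected day 3 rats. The same rats were high for both genes. The number of Amelx counts per Ambn count lay between 0.864 and 3.8 in the 7 rats with at least 100 Amelx counts. Intact day 3 rat 2 gave the value of 3.8, while intact day 3 rat 3 and transected day 3 rat 3 gave 1.1 and 1.14. Intact day 3 rat 2, the library with the highest Dspp, thus held less Ambn for its Amelx than the libraries with the highest enamel matrix levels. This was not shared by intact day 7 rats 2 and 3, the next in Dspp, which gave 1.25 and 0.864. Across the 23 rats the rank correlation of Amelx with Ambn was 0.96 (Spearman's rho), a description of rats that share tissue and depth.

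Enam, which guides crystal growth in secreted enamel, was at 0.0657, 185 and 895 CPM in the intact day 3 rats and at 0.0583, 5.38, 471.5 and 0.108 CPM in the transected day 3 rats. It made up 1.51 to 8.03 counts per 100 Amelx counts in the 7 rats with at least 100 Amelx counts. On day 7 it did not exceed 3.81 CPM in any rat, and on day 14 it did not exceed 0.249 CPM. Enam was therefore at 100 or more counts in 4 rats, all of them on day 3, while Amelx was at that level in 7.

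Mmp20 was at 0.131, 42.3 and 119 CPM in the intact day 3 rats and at 0.233, 2.95, 82.2 and 0.0538 CPM in the transected day 3 rats. On day 7 it was at 0, 14.5, 25.3 and 0.253 CPM in the intact rats and at 0, 0.0544, 7.53 and 2.37 CPM in the transected rats. On day 14 it was at 13.3 CPM in transected rat 1 and at most 0.115 CPM in the other 7 rats. The proportion of Mmp20 to Amelx was not fixed. In the 7 rats with at least 100 Amelx counts it ranged from 1.02 counts per 100 Amelx counts in intact day 3 rat 3 to 63.4 in intact day 7 rat 2, a library with 1199 Dspp counts per 100 Amelx counts.

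Klk4, the protease of enamel maturation, held 0 to 3 counts in every one of the 23 rats and was at 0 in 9. It stood at 2 counts in the library with 225816 Amelx counts and at 3 in the library with 125885. Klk4 was thus within the limit of a count of 0 throughout, and its level was not separated from 0 at this depth. It did not pass the filter on low counts in any comparison.

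Amtn and Odam, the maturation and junctional epithelium genes, had a Spearman's rho of 0.52 to Amelx over the 23 rats, for each, while Pearson's r was 0.88 for Amtn and 0.78 for Odam, and most rats held few counts of either. Amtn was at 0, 10.7 and 14.2 CPM in the intact day 3 rats, at 0.408, 14, 50.5 and 0.161 CPM in the transected day 3 rats, and at or below 0.642 CPM on days 7 and 14. Odam was at 0.0657, 82.5 and 3.4 CPM in the intact day 3 rats and at 3.79, 60.3, 88.2 and 2.15 CPM in the transected day 3 rats. Intact day 3 rat 3, with the highest Amelx, was thus below 4 other day 3 libraries for Odam, while transected day 3 rat 2 had 50.6 Odam counts per 100 Amelx counts against 0.0292 in that intact rat. Transected day 3 rats 1 and 4, with 11 and 31 Amelx counts, held 65 and 40 Odam counts. On day 7 Odam was at 0.0491, 2.66, 1.93 and 0.0844 CPM in the intact rats and at 0 counts in all 4 transected rats, and on day 14 it did not exceed 0.244 CPM. Each 0 allows up to 0.193 CPM in the transected day 7 library with the highest limit.

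**Figure D2:**
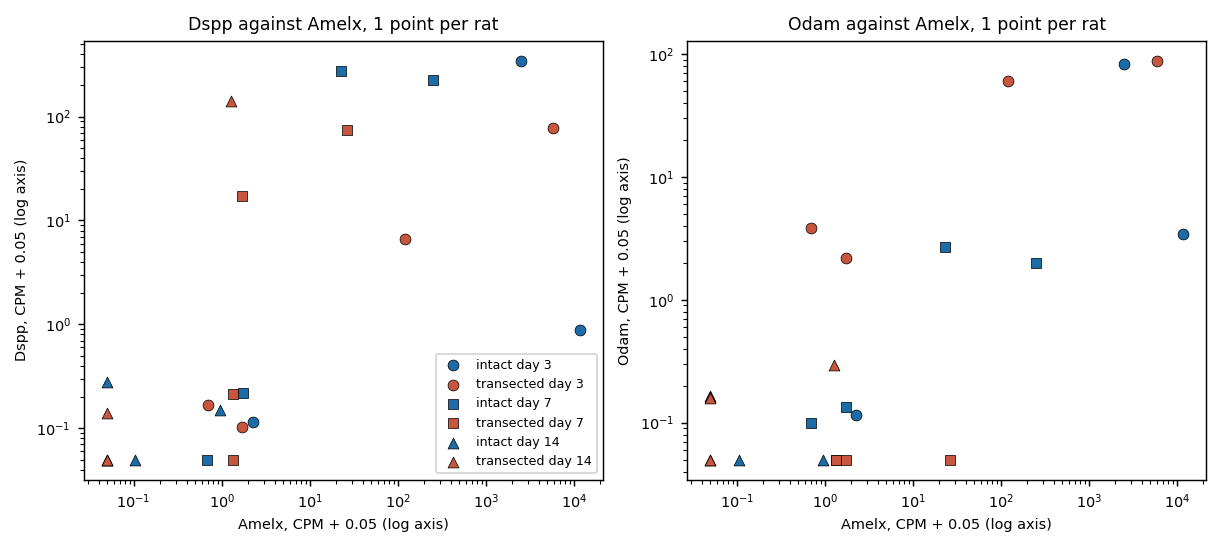
Dspp (left) and Odam (right) against Amelx, as CPM plus 0.05 on log axes, with 1 point per rat, color for nerve state and shape for day. The rat at the far right, intact day 3 rat 3, has the highest Amelx, 11636 CPM, and low Dspp, 0.824 CPM, while transected day 14 rat 1 has Dspp at 142 CPM and Amelx at 1.22 CPM.

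Dspp marked a set of libraries that only partly overlapped with the enamel set. It stood at 0.0657, 345 and 0.824 CPM in the intact day 3 rats and at 0.117, 6.52, 77.3 and 0.0538 CPM in the transected day 3 rats. On day 7 it was at 0, 275, 223 and 0.169 CPM in the intact rats and at 0, 0.163, 74.6 and 17.2 CPM in the transected rats. On day 14 transected rat 1 held 142 CPM, and the other 7 rats held at most 0.229 CPM. In counts, Dspp reached at least 100 in 8 rats and Amelx in 7, and 6 of these rats were the same. Intact day 3 rat 3 held 225816 Amelx counts with 16 Dspp counts. Transected day 7 rat 4 and transected day 14 rat 1 showed the opposite, with 268 and 1749 Dspp counts beside 26 and 15 Amelx counts. Fewer cells of a type and less RNA per cell cannot be told apart in these bulk libraries.

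The summed level of the 8 genes was 4.79, 3846 and 23206 CPM in the intact day 3 rats and 6.83, 309, 11797 and 5.54 CPM in the transected day 3 rats. On day 7 it was 1.23, 335, 800 and 4.22 CPM in the intact rats and 2.02, 2.72, 127 and 23.5 CPM in the transected rats. On day 14 it was 0.219 to 2.39 CPM in the intact rats, 159 CPM in transected rat 1 and 0.0916 to 0.45 CPM in the other transected rats. The 3 highest sums were thus all on day 3, and every group held at least 1 rat at or below 5.54 CPM. In intact day 3 rat 3 the 8 genes took 2.51% of all counts (95% exact Clopper-Pearson interval 2.5% to 2.52%, for counting error only), and in transected day 3 rat 3 they took 1.35% (1.34% to 1.35%).

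Genes of the enamel organ and of epithelium were set beside these levels. The list of ameloblast and enamel organ genes holds 17 measured genes, and its summed level ranged from 101 to 960 CPM in the intact day 3 rats, from 152 to 638 CPM in the transected day 3 rats, from 183.5 to 821 CPM in the intact day 7 rats, from 146 to 266 CPM in the transected day 7 rats and from 125 to 249.1 CPM in the day 14 rats. Krt5, a keratin of basal epithelium, was at 0.525, 469 and 199 CPM in the intact day 3 rats and at 51.9, 131, 274 and 19.1 CPM in the transected day 3 rats. Its highest day 7 level was 207 CPM, in intact rat 3. Krt14, its partner keratin, was at 0.263, 237 and 169.5 CPM in the intact day 3 rats and at 31.9, 89.7, 169 and 10 CPM in the transected day 3 rats. On day 7 Krt14 reached 77.7 CPM, in intact rat 3. Calb1, a calcium-binding protein abundant in ameloblasts, was at 176 and 70.7 CPM in intact day 3 rats 2 and 3, at 7.14 and 59.7 CPM in transected day 3 rats 2 and 3, and at 27.1 CPM in intact day 7 rat 3. It was at or below 2.88 CPM in every other rat.

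The order of the rats differed among these genes. Msx2, a transcription factor of tooth epithelium and mesenchyme, was highest in intact day 7 rat 3, at 203 CPM, where Amelx was at 253 CPM, and was at 26.1 CPM in intact day 3 rat 3. Dlx3, another tooth transcription factor, was at 218 CPM and 21.7 CPM in these rats. Acp4, a phosphatase needed for enamel, was highest in intact day 3 rat 3, at 98.4 CPM, and its 3 highest levels were in the 3 rats with the highest Amelx. Odaph, an acidic enamel matrix protein, was at 76.5 CPM in intact day 3 rat 2 and at 11, 38.6, 55.7 and 8.67 CPM in the transected day 3 rats, but at 2.11 CPM in intact day 3 rat 3, where Odam was at 3.4 CPM. Krt6a, a keratin of activated and junctional epithelium, was at 15.6 and 0.258 CPM in intact day 3 rats 2 and 3 and at 7.23, 7.67, 22.2 and 2.8 CPM in the transected day 3 rats.

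**Figure D3:**
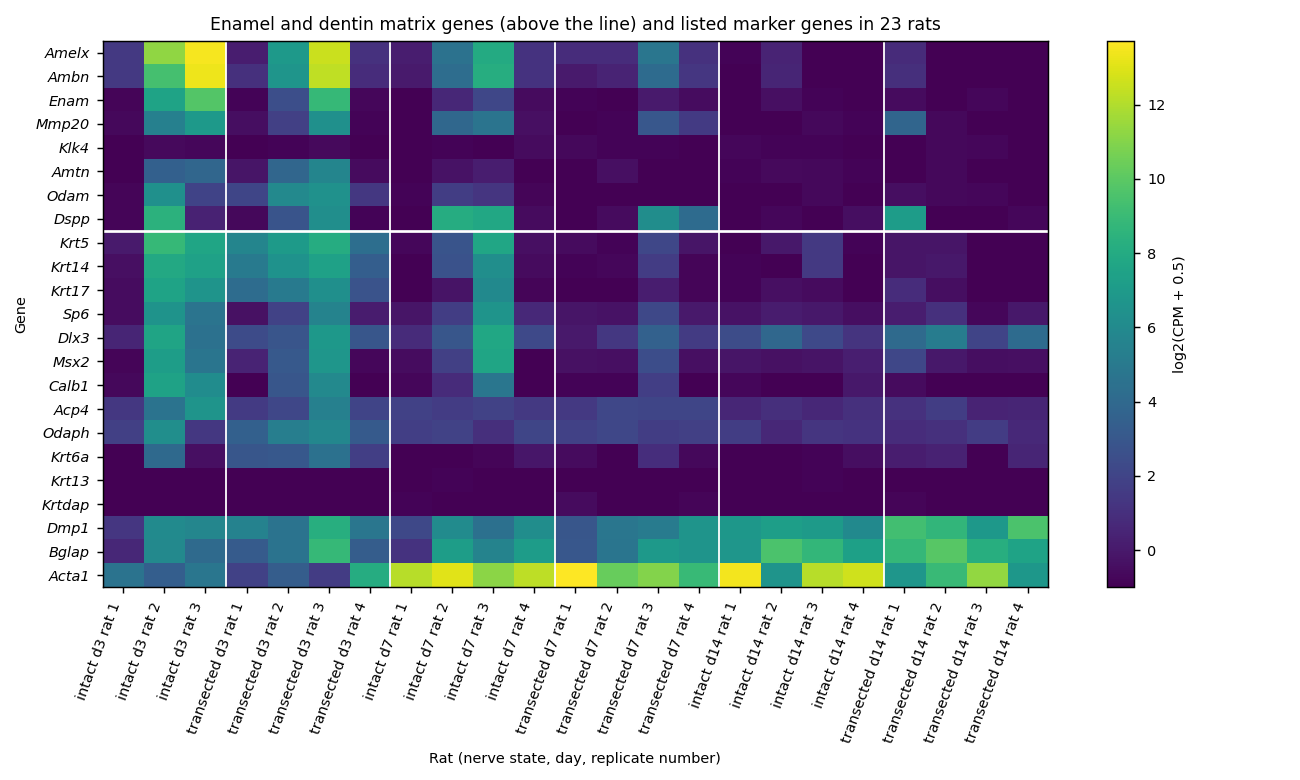
Level of the 8 matrix genes (top rows) and of 15 listed marker genes in the 23 rats (columns), as log2 of CPM plus 0.5 by color, with white vertical lines between the 6 groups. Intact day 3 rats 2 and 3, transected day 3 rats 2 and 3 and intact day 7 rat 3 are bright for Amelx, Ambn, Krt5 and Krt14 together, while Odaph and Krt6a are dim in intact day 3 rat 3.

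Markers of other cell types were read in the same rats. Krt13 and Krtdap, of differentiated oral epithelium, held at most 1 and 3 counts in any rat. Other genes of the oral and junctional epithelium list were counted in every rat, with Krt76 at 0.337 to 1.47 CPM and Dsg3 at 2.58 to 46.4 CPM. The 4 measured salivary gland genes summed to at most 1.03 CPM. The summed level of 8 skeletal muscle genes was 17.7 to 398 CPM in the day 3 rats, 1872 to 36999.5 CPM in the day 7 rats and 245 to 27569 CPM in the day 14 rats. Its part in the day comparisons was not tested. Arhgap6, the gene that overlaps Amelx in the RefSeq GRCr8 assembly, ranged from 4.38 to 32.7 CPM over the 23 rats and was at 4.38 CPM in transected day 3 rat 3, where Amelx was at 5872 CPM. The strand used in counting is not given in the sources used here, so reads of overlapping genes cannot be told apart.

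Next, transected rats were compared with intact rats on each day with edgeR's quasi-likelihood test, with Benjamini-Hochberg adjustment over all genes tested and a threshold of 0.05. On day 3 the test called 0 of the 7 genes that passed the filter on low counts, and 0% of all 14717 genes tested were called (122 had an unadjusted p under 0.05, and DESeq2 called 0). These p-values measure only the spread between these rats. The log2 fold change (transected over intact) was -1.62 ± 2.83 (SE) for Amelx, -2.48 ± 2.57 for Dspp and 0.98 ± 1.96 for Amtn, with group means of 1498 ± 2916 and 4718 ± 6121 CPM (SD, n = 4 and 3) for Amelx. The SD exceeded the mean in both groups, and the ranges of all 7 genes overlapped. The direction for Amelx, Ambn and Enam rested on intact day 3 rat 3, without which the values were 0.23, 1.96 and 0.34. For Dspp it rested on intact day 3 rat 2, without which the value was 5.53, and without transected day 3 rat 3 the value for Amelx was -6.86.

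On day 7, 4 of the 8 genes passed the filter and 0 were called, as were 0% of the 14716 genes tested (215 had an unadjusted p under 0.05, and DESeq2 called 1 gene). All 4 were lower in the transected group on the fitted scale, with Amelx at -3.19 ± 1.86, Ambn at -3.92 ± 1.96, Mmp20 at -2.01 ± 1.87 and Dspp at -2.42 ± 2.31. All 4 genes overlapped between the groups. Without intact day 7 rat 3 the values for Amelx and Ambn were -0.13 and -0.4. On day 14 none of the 8 genes passed the filter, and 0% of the 14610 genes tested were called (1363 had an unadjusted p under 0.05), while DESeq2 called 103 genes and none of the 8. In edgeR, a test of the interaction of transection and day over all 23 rats called 0 of 7 genes and 0 of 15858 genes tested (476 had an unadjusted p under 0.05). The smallest unadjusted p among the 7 was 0.0507, for Dspp, with an adjusted p of 0.998 in edgeR.

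**Figure D4:**
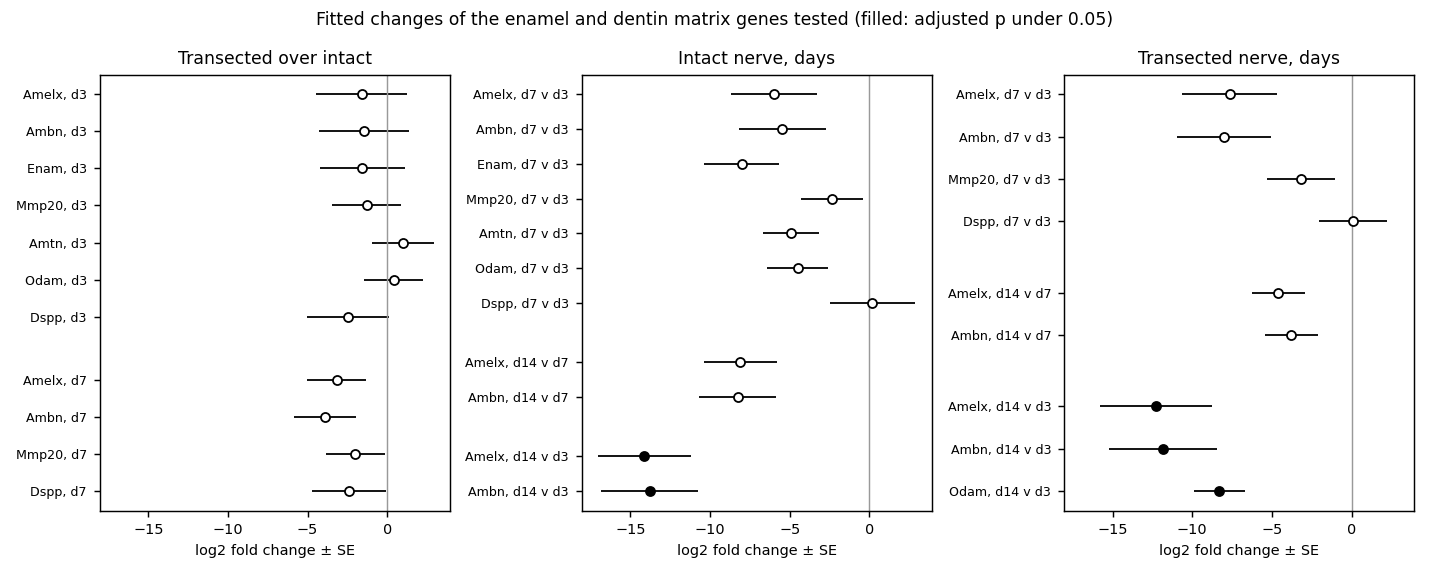
Fitted log2 fold change with its SE for each gene that passed the filter, for transected over intact rats (left) and for later over earlier days in intact (middle) and transected rats (right), with filled points at an adjusted p under 0.05. The filled points are Amelx and Ambn on day 14 against day 3 in both nerve states and Odam in the transected rats, and Odam on day 7 against day 3 in transected rats is not drawn because all 4 day 7 values are 0.

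Within each nerve state the days were then compared, to ask when these transcripts were present. A gene passed the filter here on the rats of the days compared. On day 14 against day 3 this was mainly through its day 3 level, and on day 14 against day 7 mainly through its day 7 level. On day 7 against day 3 rats of both days could carry a gene through, as for Dspp. The counts below thus describe the genes that could be tested and do not support a general fall. In the intact rats on day 7 against day 3, 0 of 7 genes tested were called while 6.67% of all 15017 genes were. The value for Enam was -8.01 ± 2.35 (edgeR, adjusted p = 0.0893), for Amelx -5.99 ± 2.68 (edgeR, adjusted p = 0.222), and for Dspp 0.18 ± 2.66 (edgeR, adjusted p = 0.978). From day 7 to day 14, 0 of 2 genes tested were called, and 0.0202% of all 14868 genes. On day 14 against day 3, 2 of 2 genes tested were called, and 5.78% of all 15065 genes.

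Amelx fell by 14.14 ± 2.92 on the log2 scale between day 3 and day 14 in the intact rats (edgeR, adjusted p = 0.0435), from 4718 to 0.238 CPM, and the groups did not overlap. Ambn fell by 13.8 ± 3.06 (edgeR, adjusted p = 0.0491), from 3734 to 0.237 CPM, also without overlap. Such separation was common, at 24.6% of all genes tested. The lowest intact day 3 rat held 2.23 CPM of each gene, and the highest intact day 14 rat held 0.897 CPM of Amelx and 0.947 CPM of Ambn. Intact day 14 rats 1 to 4 held 1, 18, 0 and 0 counts of Amelx and 0, 19, 0 and 0 of Ambn. The day 14 means thus rested on rat 2, and the sizes of the falls are not well measured. Both calls sat at the edge of the threshold. The Amelx call was kept in 2 of 7 fits that each left out 1 rat, those without intact day 3 rat 1 and without intact day 14 rat 2, and the adjusted p was 0.0751 to 0.137 in the other 5. The Ambn call was kept in 1 of 7, that without intact day 3 rat 1, and was lost with RLE size factors (edgeR, adjusted p = 0.0506) and with no filter (edgeR, adjusted p = 0.0537).

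In the transected rats on day 7 against day 3, 1 of 5 genes tested was called, and 10.4% of all 14578 genes, and here the days come from different tables. Odam fell from 38.6 ± 42.7 CPM (SD, n = 4) to 0 counts in every rat, a level at least 200.6-fold lower against a limit of 3 counts per library (edgeR, adjusted p = 0.0492). The day 3 mean rested on rats 2 and 3. Without transected day 3 rat 3 the bound was at least 114.8-fold, and from the lowest day 3 rat it was at least 11.2-fold. This call was lost without any 1 of the 8 rats (edgeR, adjusted p of 0.054 to 0.105), with RLE size factors (0.0501), with library totals (0.0514) and with no filter (0.0531). From day 7 to day 14, Amelx stood at -4.6 ± 1.66 (edgeR, adjusted p = 0.158), and at -9.94 to -2.15 without 1 rat. The groups did not overlap, as for 12.3% of all genes tested, but the gap was narrow. Transected day 14 rat 1 held 1.22 CPM (15 counts) and transected day 7 rat 1 held 1.29 CPM (23 counts), while transected day 7 rat 3 held 26.5 CPM. In this comparison 0 of 2 genes tested were called, and 0.0138% of all 14447 genes. On day 14 against day 3, 3 of 3 genes tested were called, and 23.5% of all 14450 genes.

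Odam fell by 8.3 ± 1.62 on the log2 scale between day 3 and day 14 in the transected rats (edgeR, adjusted p = 0.0117), from 38.6 to 0.116 CPM. Transected day 14 rats 1 to 4 held 3, 2, 1 and 0 Odam counts, all within the limit of a count of 0. The day 14 level was thus not separated from 0, and the size of the fall is not well measured. The groups did not overlap, as for 26.7% of all genes tested. The call of Odam was kept in 8 of 8 fits that each left out 1 rat (edgeR, adjusted p of 0.0117 to 0.0375). Amelx fell by 12.28 ± 3.51 (edgeR, adjusted p = 0.0387) and Ambn fell by 11.83 ± 3.4 (edgeR, adjusted p = 0.0392), although transected day 14 rat 1 stood above the lowest day 3 rat for both. That rat held 15 counts of Amelx and 18 of Ambn, and transected day 14 rats 2, 3 and 4 held 0 of each. The sizes of these 2 falls are thus not well measured either. Both calls were kept in 2 of 8 such fits, those without transected day 3 rat 1 and without transected day 3 rat 4, and were lost without any other rat (edgeR, adjusted p of 0.0608 to 0.125 for Amelx). DESeq2 gave no adjusted p for Amelx or Ambn in this comparison.

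In none of the lists was a gene called for transection on any day. In this paragraph, genes said to fall or rise are those called, and genes not called can have a fold change of either sign. Several epithelial genes fell with day in the transected rats, whose day 7 values come from the separate table. On day 7 against day 3, 6 of the 10 tested genes of the oral and junctional epithelium list were called lower and 0 were called higher, while 10.4% of all genes were called. On the fitted scale 2 of the 10 were higher, uncalled. The median log2 fold change of the 10 was -4.08 beside -0.0148 over all genes tested. Krt5 fell by 6.72 ± 1.4 (edgeR, adjusted p = 0.0255). It passed the filter through its day 3 rats, at 19.1 to 274 CPM against 0.0544 to 3.86 CPM on day 7, as did other keratins of the list. The counts and medians of this list, on day 7 and on day 14, thus describe the genes that could be tested and do not support a general fall. By day 14, 5 of the 11 tested genes of that list fell against day 3 and 0 rose, while 23.5% of all genes were called, with a median of -2.7 beside -0.0478. In the ameloblast and enamel organ list, 1 of 15 genes fell on day 14 against day 3 in each nerve state, beside 5.78% of all genes called in the intact and 23.5% in the transected rats. Acp4 fell by 5.01 ± 1.1 in the intact rats (edgeR, adjusted p = 0.049), and Odaph fell by 4.18 ± 0.704 in the transected rats (edgeR, adjusted p = 0.00692). On day 7 against day 3 in the transected rats, Odaph fell by 3.21 ± 0.64 (edgeR, adjusted p = 0.0231) and Krt75, an epithelial keratin, rose by 2.3 ± 0.556 (edgeR, adjusted p = 0.0399). In the intact rats, 1 of 10 oral epithelium genes tested fell on day 7 against day 3, beside 6.67% of all genes called, and 0 of 9 on day 14, beside 5.78%. Among the 12 genes listed for odontoblasts and dental mesenchyme, Phex rose and Fam20c fell on day 14 against day 3 in the transected rats, by log2 fold changes of 4.18 and -1.13. In the intact rats 0 of 12 were called. Phex was at 133, 129 and 234 CPM in transected day 14 rats 1, 2 and 4, where the bone matrix gene Mepe was at 197, 165 and 253 CPM. Dspp was at 142, 0 and 0.0916 CPM in these rats, so the level of Phex did not follow that of Dspp. Of the 9 bone matrix genes tested, Mepe rose and Spp1 fell in the transected rats (4.65 and -1.59) and Spp1 fell in the intact rats (-2.83). These shares of 2 of 12, 2 of 9 and 1 of 9 stand beside 23.5% of all genes called in the transected and 5.78% in the intact rats. Beside these, 8 of 8 skeletal muscle genes rose on day 7 against day 3 in the intact rats and 7 of 8 in the transected rats, and the part of muscle content in the falls was not tested.

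Finally, the genes whose rank over the 23 rats was most like that of each matrix gene were listed among 15896 genes with at least 10 counts in at least 3 rats. Amelx was most like Mrnip, a DNA repair factor (Spearman's rho 0.854), Ambn most like Col17a1, a collagen of the epithelial anchoring complex (0.861), and Enam likewise Col17a1 (0.801). Mmp20 and Dspp had the same nearest gene, Etnppl, an enzyme of phospholipid breakdown, with a rho of 0.888 and 0.825. Etnppl was at 92.6 and 56 CPM in intact day 3 rats 2 and 3, at 158 CPM in intact day 7 rat 3 and at 15.5 CPM in transected day 14 rat 1. Amtn was most like Npy4r, a neuropeptide Y receptor (0.87), and Odam most like Mtr, methionine synthase (0.843), followed by Krt14 (0.839). Mrnip and Mtr each moved little, from 2.2 to 4.92 CPM and from 25.3 to 38.7 CPM, so that a high rho here gives the order of the rats and not the size of the change. Npy4r had a median of 0 CPM and a highest level of 1.77 CPM, so that its rho rests largely on levels near 0. The summed level of the 8 genes was most like Wnt10a, a Wnt ligand of tooth development (0.89), followed by Krt5 (0.863), Perp, a desmosome protein (0.852), and Krt17 (0.847).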

How the data were processed

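Healing tissue from 23 rats was sequenced (mRNA libraries, DNBSEQ). The deposited values are expected counts per gene made by the authors; the labels name HISAT, Bowtie2 and the build mRatBN7.2, and the counting program is not given in the sources used here. Of the values, 37% are exactly whole as deposited, zeros included, and all were rounded to whole numbers. Another deposited table, of cultured mouse macrophages, was not used. Counts were fitted in edgeR 4.0.16 (R 4.3.3) with TMM scaling, filterByExpr and the quasi-likelihood test, only the rats of the groups compared entering each fit, and p-values were adjusted by the Benjamini-Hochberg method over all genes tested. The SE of a fold change is its size over the square root of F. The functions were tested on simulated counts. Over all genes tested, the same replicate number in 2 groups did not mark deviations in common (correlations of -0.388 to 0.472). For Amelx, however, replicate 3 was the highest rat of each day 3 and day 7 group. It held 11636 and 253 CPM in the intact and 5872 and 26.5 CPM in the transected groups. On day 14 the highest rats were intact rat 2 and transected rat 1, at 0.897 and 1.22 CPM. Whether equal replicate numbers share a batch is not given and was not tested. The genes, marker lists and tests were chosen with earlier results of these data known. All 8 matrix genes are named, with list genes of smallest p or standing beside a member, and the genes of highest Spearman rho on log2(CPM + 0.5). Each rat is treated as a separate animal. Alternatives were DESeq2 1.42.0, other scalings and filters, a replicate block, a fit of all rats and leaving out each rat. Values of 1 listed epithelial gene are not reported here.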

Additional observations from a re-analysis of the deposited data

Results flagged for a closer look

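In groups of 4 rats, a level was singled out where its gap to the next rat, divided by the range of the group, exceeded Dixon's 95% critical value. The 8 genes and their sum gave 45 such groups, of which 21 were singled out. Chance flags about 1 in 20 only for normally distributed values. These levels span orders of magnitude or are a few counts, and the genes are not independent of each other. The number singled out therefore cannot be read as an excess over chance. The intact day 3 group, with 3 rats, was not tested.

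Transected day 3 rat 3 stood apart for Amelx (5872 CPM, next 119), Ambn (5155), Enam (471.5), Mmp20 (82.2), Dspp (77.3) and the sum (11797). Transected day 14 rat 1 stood apart for Dspp (142 CPM, next 0.0916), Mmp20 (13.3), Amelx (1.22), Ambn (1.46) and the sum (159). Intact day 7 rat 3 stood apart for Amelx (253 CPM, next 22.9) and Ambn (292.5). Transected day 7 rat 3 did so for Amelx (26.5 CPM, next 1.67) and Ambn (17.3). Intact day 14 rat 2 did so for Amelx (0.897 CPM), Ambn (0.947) and the sum (2.39). At the level of a few counts, Amtn stood apart in transected day 7 rat 2 (0.272 CPM) and transected day 14 rat 2 (0.113), and Odam in intact day 14 rat 3 (0.115).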

How the results depend on the processing

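The number of matrix genes called was 0 under every alternative for transection on days 3, 7 and 14, for the interaction and for transected rats on day 14 against day 7. For intact rats on day 7 against day 3 (0 called) it was 1 with the replicate block, 1 with all 23 rats in 1 fit and 2 with DESeq2, and on day 14 against day 7 (0 called) it was 3 with DESeq2. On day 14 against day 3 (2 called) it was 1 with RLE size factors, 0 with the replicate block, 6 with all rats and 6 with DESeq2, and 0 to 5 without 1 rat. For transected rats on day 7 against day 3 (1 called) it was 0 with RLE size factors, library totals, no filter or the replicate block, 3 with all rats, 2 with DESeq2, and 0 to 0 without 1 rat. On day 14 against day 3 (3 called) it was 1 with the replicate block, 5 with all rats, and 1 to 3 without 1 rat. The cause was not tested. The replicate numbers pair no animals, and the block left 0 of all genes called for intact rats on day 14 against day 3 (871 without it).

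The fold change of Dspp reversed with the block for transection on day 3 (0.4) and for transected rats on day 7 against day 3 (-0.12). Without 1 rat, the day 3 transection values ranged from -6.86 to 0.23 for Amelx, -6.74 to 1.96 for Ambn, -7.57 to 0.34 for Enam, -0.79 to 1.57 for Amtn, -0.43 to 4.47 for Odam and -5.72 to 5.53 for Dspp. On day 7 against day 3, Dspp ranged from -0.65 to 8.08 in intact and -1.94 to 3.32 in transected rats, where Mmp20 ranged from -4.82 to 1.17.

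Over all genes, library totals gave 579, 13 and 547 calls for intact rats on day 7 against day 3, day 14 against day 7 and day 14 against day 3 (1002, 3 and 871 with TMM), and 21 and 1184 for transected rats on day 14 against day 7 and day 3 (2 and 3393). The block gave 122, 0 and 0 for the 3 intact comparisons, and 2 and 0 for transected rats on day 7 against day 3 and day 14 against day 7. All 23 rats in 1 fit gave 2605 for intact rats on day 14 against day 3 and 927 for transected rats on day 14 against day 7. DESeq2 gave 1 and 103 for transection on days 7 and 14, 2750, 335 and 3410 for the intact comparisons, and 3262 and 2012 for transected rats on day 7 against day 3 (1523) and day 14 against day 7. DESeq2 gave no adjusted p to 9 fold changes of the matrix genes. For the interaction, a DESeq2 likelihood ratio test, chosen after seeing the data, replaced the Wald test, which gives no single p for 2 terms. Of the 45 pairs of a matrix gene or their sum with a like gene, 26 remained with library totals and 8 with Pearson's r, both added after seeing the data. With library totals 0 of the 5 genes like Amtn remained. With Pearson's r 0 of 5 remained for each of Amelx, Ambn, Enam and Amtn. At 3 to 4 rats a group and an SD above the mean, a difference of several-fold was within the spread.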
